A study of Oryza sativa with 8 samples.

Results

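Superoxide dismutases (SODs) are metal enzymes that turn the superoxide radical into hydrogen peroxide and oxygen. Plants hold forms that differ in the bound metal and in the cell compartment: a manganese form in mitochondria, copper-zinc forms in the cytosol and in plastids, and iron forms in plastids. The peroxide they make is then removed by catalases, ascorbate peroxidases and other peroxidases, and superoxide itself comes from photosynthetic and respiratory electron transport and from NADPH oxidases of the plasma membrane. In Arabidopsis, the copper chaperone CCS loads copper into the copper-zinc forms, and a microRNA lowers their transcripts when copper is scarce.

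The 5 rice SOD genes described here were found by their gene identifiers, with no threshold on a measured value. They are SODA (Os05g0323900, manganese), SODCC1 (Os03g0351500) and SODCC2 (Os07g0665200), both cytosolic copper-zinc, SODCP (Os08g0561700, plastid copper-zinc) and an iron SOD (Os06g0143000). By their identifiers they lie on chromosomes 5, 3, 7, 8 and 6. Of the 5827 genes listed as changed in either tissue, 3 were among these 5: SODA, SODCC1 and SODCC2 were among the 4623 genes of the blade list, and SODCC2 was also among the 1998 genes of the sheath list. SODCP and the iron SOD were selected in neither tissue and have no value here.

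The study grew rice (Oryza sativa) in hydroponic culture and sequenced RNA from leaf blades and leaf sheaths of plants under 100 mM NaCl for 24 h and of control plants. The 8 samples formed 4 groups of 2, blade salt, blade control, sheath salt and sheath control. The study as a whole is about a Japanese landrace that tolerates sodium in its tissues, but the sample labels give no variety, plant age or number of plants. The labels do not say whether both libraries of each group are from separate plants, so a p-value speaks only of the spread between these samples, possibly a technical one. The deposited tables hold 1 value per group and no value per sample, so whether single samples of a salt and a control group overlap cannot be seen, and no SD can be given. The green leaf genes RBCS (a small subunit of Rubisco), CAB2R (a light-harvesting protein) and RCA (Rubisco activase) stood at 28778, 10873 and 8022 TPM (a transcript level corrected for gene length and library size) with salt in blades, against 53569, 15132 and 8160 TPM in control blades. None of these 3 genes was selected in sheaths, and the meristem gene OSH1 was selected in neither tissue. The listed blade genes held a mean of 9995664 reads per salt library and 10745825 per control library, while no read counts are given for sheaths, whose depth is unknown. In such bulk samples, fewer cells of a type and less RNA per cell cannot be told apart.

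In leaf blades all 3 listed SOD transcripts were higher with salt, and none was lower. SODCC2 rose most, SODA less and SODCC1 least, with 1.02, 0.44 and 0.22 as log2 fold change by the authors' deposited table, or 2.03-fold, 1.35-fold and 1.17-fold. Among all the genes it lists, 51.7% were higher, so a listed blade gene was about as often higher as lower. Among them 19.8% rose by at least 1 on the log2 scale, as 1 SOD, SODCC2, did.

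SODA encodes the manganese enzyme of the mitochondrial matrix. It averaged 142 TPM in salt blades and 92.3 TPM in control blades. The mean read count was 1804 per salt library and 1220 per control library. The authors' deposited table gave q = 4.8e-05, where q is a p-value adjusted over many genes, and the table stops at q = 0.0499. The counting interval (95%, exact Clopper-Pearson, on the scale of the deposited fold change) ran from 0.36 to 0.51 on the log2 scale. Counting intervals cover the sampling of reads and not the spread between plants or libraries.

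SODCC1, a cytosolic copper-zinc enzyme, was the most abundant SOD in the list. It averaged 671 TPM in salt blades and 504 TPM in control blades, with 6681 and 5235 mean reads. Its level in salt blades ranked 124 among the 4623 listed genes, and its control level ranked 137. Its change was the smallest of the 3, with q = 0.0074 in the authors' deposited table and a counting interval of 0.19 to 0.26 on the log2 scale. Only 0.585% of the 2392 listed genes that rose had a smaller deposited fold change, and the smallest deposited change of any blade gene in either direction was 0.165.

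SODCC2, the other cytosolic copper-zinc enzyme, averaged 269 TPM in salt blades and 116 TPM in control blades. The mean read count was 2249 per salt library and 1011 per control library. The authors' deposited table gave q = 7.2e-26, and 271 of the 4623 listed genes had a smaller q. The counting interval of its change ran from 0.95 to 1.10 on the log2 scale. The counting intervals of the 3 genes did not overlap each other, but the differences between the genes were not tested against the spread between libraries.

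**Figure D1:**
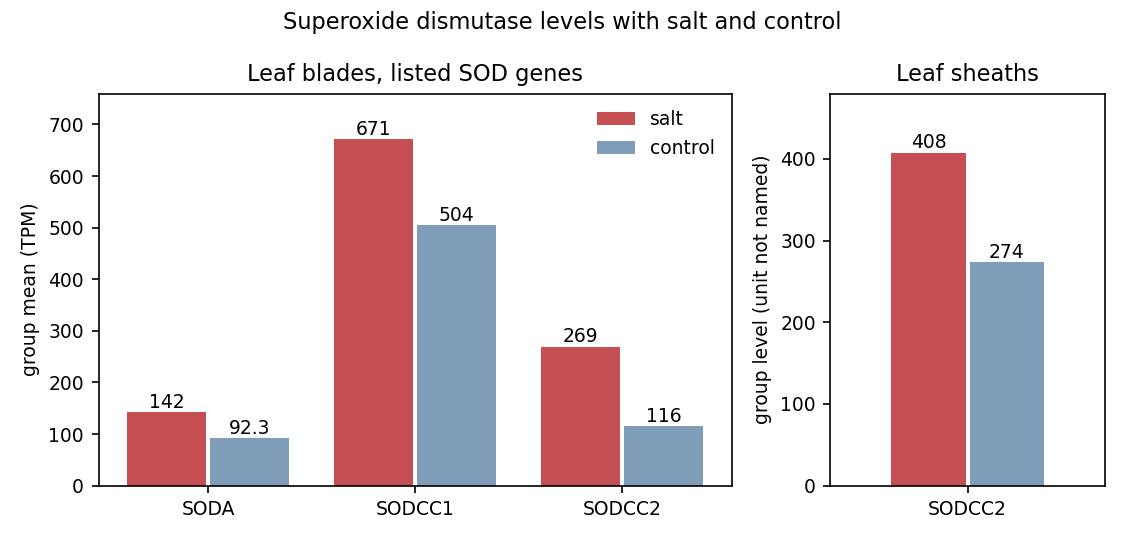
Group levels of the listed SOD genes, salt in red left of control in blue: mean TPM in leaf blades (left panel) and the deposited level of unnamed unit in leaf sheaths (right panel). Bars are the authors' group values of 2 libraries, so there are no error bars. SODCC1 is the highest in blades with salt and in control. In blades SODCC2 has the largest ratio of salt to control, 269 against 116 TPM.

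The make-up of the listed SOD transcripts was not the same in both blade groups. Because TPM is corrected for length, the 3 genes can be set against each other. SODCC1 made up 62.0% of their summed TPM with salt and 70.7% in control. SODCC2 made up 24.9% with salt and 16.3% in control, while the share of SODA was 13.1% with salt and 13.0% in control. SODCC1 was 2.49 times as abundant as SODCC2 in salt blades and 4.34 times as abundant in control blades. SODCC2 and SODA were closer, with 1.89 times as much SODCC2 as SODA in salt blades and 1.26 times in control blades. The order of the levels was SODCC1, SODCC2 and SODA in both groups, and the spread over samples behind that order is not known. By reads SODA stood above SODCC2 in control blades, with 1220 and 1011 mean reads, since its reads per TPM, which follow gene length, were 1.52 times those of SODCC2.

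Summed over the 3 genes, the SOD level was 1083 TPM in salt blades and 713 TPM in control blades, a ratio of 1.52. By TPM, SODCC1 made up 45.1%, SODCC2 41.4% and SODA 13.5% of the gain. These values depend on the scale: with the control TPM of each gene multiplied by its deposited fold change, the ratio of the sums was 1.33, and SODCC1 made up 35.6%, SODCC2 50.7% and SODA 13.7% of the gain. Which of the cytosolic genes added more thus turned round with the scale. These sums leave out the plastid genes SODCP and iron SOD, which were not selected, and so they are not the whole SOD pool of the leaf.

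The size of each blade change depends on the scale. The direction stayed the same, as the upward shift described here leaves any rise a rise. As ratios of the deposited mean TPM, the log2 changes were 0.62 for SODA, 0.41 for SODCC1 and 1.21 for SODCC2. Each lay 0.19 above the deposited fold change, as did the median of all listed genes, whose deposited fold change differed from the TPM ratio by -0.19. The order of the 3 genes was the same on the scales of TPM, FPKM and reads. For SODCC1 the scale moves the value by more than 1.5 times, from 0.22 deposited to 0.41 by TPM.

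**Figure D2:**
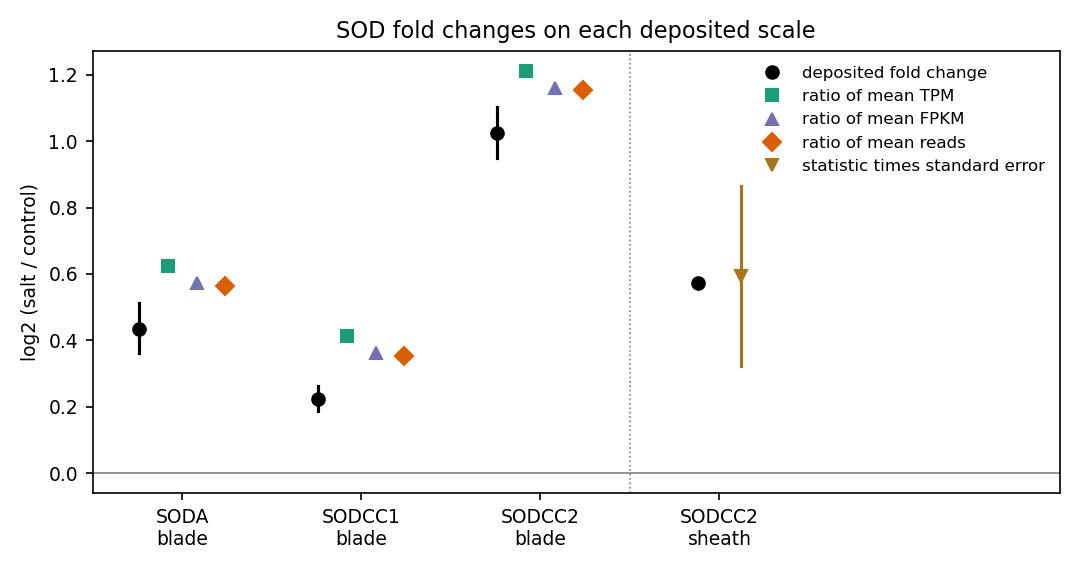
Log2 of salt over control for each listed SOD gene, left of the dotted line in blades and right of it in sheaths, on each scale that the tables allow. Black bars are 95% counting intervals of the blade values, and the brown bar is the 95% interval from the deposited standard error in sheaths. All points lie above 0, and SODCC2 in blades is the highest on every scale.

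SODCC1 and SODCC2 encode similar proteins, so reads could be shared between their transcripts. The reads of each of the 3 SOD genes, summed over both libraries of a group, were whole numbers in both groups. Of all listed blade genes, 5.58% had group means that 2 whole numbers cannot give, so their counts were estimated. How reads that match more than one gene were treated is not given in the sources used here.

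In leaf sheaths 1 of the 5 SOD genes, SODCC2, was selected, and it was higher with salt. It stood at a level of 408 in salt sheaths and 274 in control sheaths, in a unit that the table does not name. The log2 fold change was 0.57, or 1.49-fold, and the adjusted p was 4.2e-04 by the authors' deposited table, which stops at an adjusted p of 0.004. The listed statistic times its standard error, taken here as the change that was tested, gave 0.59 with a standard error of 0.138. The 95% interval from these was 0.32 to 0.86 on the log2 scale. That interval was computed here from the deposited statistic and standard error, and it rests on 2 libraries a group. Among all the genes it lists, 45.6% were higher with salt and 20.8% rose by at least 1 on the log2 scale, as SODCC2 did not. SODA, SODCC1, SODCP and the iron SOD were not selected in sheaths.

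SODCC2 was thus higher with salt in both tissues, with deposited log2 fold changes of 1.02 in blades and 0.57 in sheaths. Whether these differ was not tested: the tables come from different estimates and stop at different thresholds, the blade table has no standard error, and a sheath level cannot be set against a blade TPM. SODA and SODCC1 were selected in blades and not in sheaths, which does not show that they differ between tissues. The smallest deposited fold change of a sheath gene in either direction was 0.456, above the 0.22 of SODCC1 and the 0.44 of SODA in blades. As ratios of mean TPM the blade changes were 0.41 for SODCC1 and 0.62 for SODA, so SODA then lay above 0.456. Because the tables come from different estimates, why SODA and SODCC1 were not selected in sheaths was not tested.

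Set beside other abundant transcripts that rose in blades, SODCC2 stood high, SODA near the middle and SODCC1 low. Among the 295 listed genes that rose and had at least 100 TPM as the mean of both groups, the median deposited log2 fold change was 0.42. Of these 295 genes, 34 had a larger fold change than SODCC2, 138 a larger one than SODA and 282 a larger one than SODCC1. In sheaths, 128 of the 143 rising genes with a mean level of at least 100 had a larger fold change than SODCC2. The standard error of SODCC2 was among the smallest in the sheath table, with 1.20% of genes below it.

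**Figure D3:**
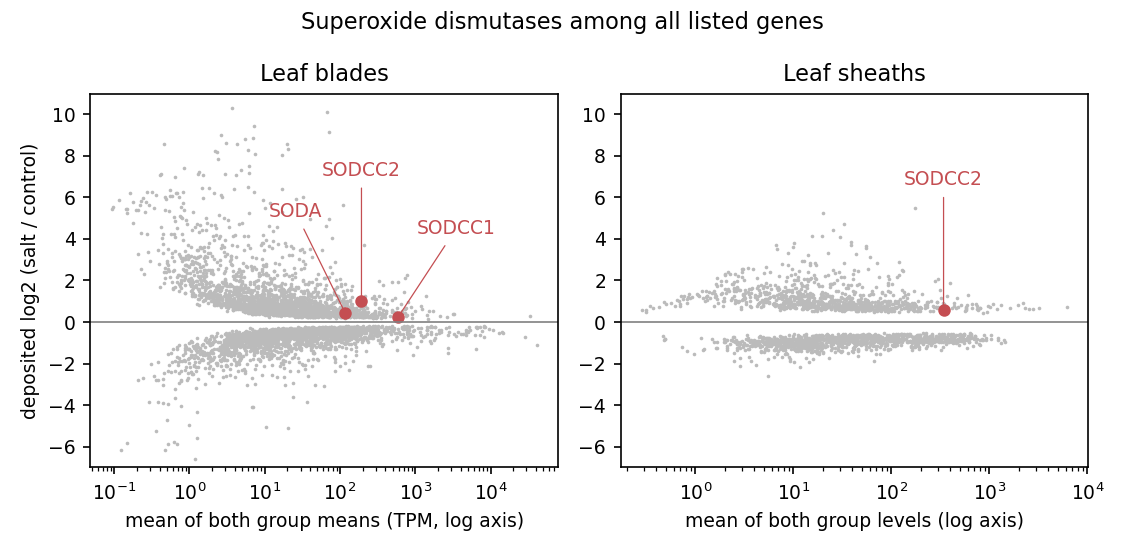
Deposited log2 fold change, salt over control, against the mean level of both groups (log axis) for every listed gene in grey, with the SOD genes in red, in blades (left) and sheaths (right). The gap around 0 shows the genes that were not selected. SODCC1, at 671 TPM with salt and 504 TPM in control, lies at the lower edge of the rising genes, and SODCC2 lies well above it in blades.

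The genes beside the SODs were taken from 8 lists with 60 members, which cover further SOD genes and the copper chaperone, the makers of superoxide, the enzymes that remove peroxide, and the supply of copper, manganese and iron. In blades 25 of the 60 were listed, 14 higher and 11 lower, so 56.0% were higher beside the 51.7% of all listed genes. Their median deposited log2 fold change was 0.39 and that of all listed blade genes was 0.27. In sheaths 10 of the 60 were listed, 9 higher and 1 lower, beside the 45.6% of all listed genes that were higher. Their median was 0.69 and that of all listed sheath genes -0.65. The shares of 51.7% in blades and 45.6% in sheaths also stand beside the counts of each single list below, none of which was tested.

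CCS, the chaperone that hands copper to copper-zinc SODs, was higher in salt blades together with SODCC1 and SODCC2. It averaged 166 TPM with salt and 96.7 TPM in control, and the authors' deposited table lists it at 0.59 on the log2 scale with q = 8.2e-11. CCS was not selected in sheaths. There, Os03g0219200, which stood on the list as a further copper-zinc SOD gene but without a checked name, had a level of 247 with salt and 156 in control. The authors' deposited table lists it at 0.65 on the log2 scale with adjusted p = 3.2e-04, and statistic times standard error gave 0.68 with a standard error of 0.155.

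Of the copper genes on the metal list, COPT1, a copper transporter, was higher with salt in blades at 114 TPM against 74.9 TPM in control. The authors' deposited table lists it at 0.42 on the log2 scale with q = 0.0049. PETE, which encodes plastocyanin, the copper protein of photosynthetic electron transport, was lower at 12873 TPM with salt against 16031 TPM in control. Its change on the log2 scale was -0.51 by the authors' deposited table and -0.32 as a ratio of TPM. Of 15 metal genes, 3 were higher and 2 lower in blades, and 2 were higher and 1 lower in sheaths. The largest changes of this list in blades were in genes without a checked name. Os11g0106700 averaged 547 TPM with salt and 122 TPM in control, and the authors' deposited table lists it at 1.98 on the log2 scale. Os12g0106000 averaged 945 TPM with salt and 217 TPM in control, listed at 1.93 in the authors' deposited table, and Os03g0226400 averaged 9.57 TPM with salt and 32.2 TPM in control, listed at -1.94. Os11g0106700 and Os12g0106000 were also the higher ones in sheaths, at 0.73 and 0.55 by the authors' deposited table. They lie on chromosomes 11 and 12 by their identifiers and may be similar copies that share reads, so their separate values are uncertain. The lower one in sheaths was NRAMP5, a manganese transporter, with a level of 9.67 under salt and 19.2 in control. The authors' deposited table lists it at -0.92 on the log2 scale, while statistic times standard error gave -0.96 with 0.186 as standard error.

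Among the 9 NADPH oxidases, which make superoxide outside the cell, 1 was higher and 1 lower in blades and none was selected in sheaths. RBOHB was the lower one, at 33.4 TPM with salt and 52 TPM in control. The authors' deposited table lists it at -0.82 on the log2 scale with q = 1.7e-22. The higher one, Os01g0734200, has no checked name. It was also the listed redox gene nearest to SODCC2 in blades, at 1.13 beside 1.02 in deposited log2 fold change, out of 20 such genes.

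All 3 catalases, which break down peroxide, mainly in peroxisomes, were listed in blades, 2 higher and 1 lower. CATB was the redox gene nearest to SODA, with a deposited log2 fold change of 0.42 beside 0.44, and averaged 60.3 TPM with salt and 39.5 TPM in control. CATA was the lower one, at 98.4 TPM in salt blades and 375 TPM in control blades. The most abundant listed catalase, Os03g0131200, which has no checked name, averaged 3879 TPM with salt and 2578 TPM in control. The authors' deposited table lists it at 0.39 on the log2 scale. In sheaths its level was 519 with salt and 221 in control, listed at 1.23 in the authors' deposited table, the largest rise of the 10 listed genes there. Of the 8 ascorbate peroxidases, 2 were higher and 2 lower in blades, and 2, APX2 and APX8, were higher in sheaths. The higher ones in blades were the cytosolic APX1 and APX2. APX1 averaged 419 TPM with salt and 279 TPM in control, and APX2 2145 TPM with salt and 1295 TPM in control. In sheaths APX2 had a level of 992 with salt and 723 in control, listed at 0.456 on the log2 scale. The lower ones in blades, APX8 and APX7, belong to the chloroplast, with APX8 at 673 TPM with salt and 869 TPM in control. APX7 changed by -0.29 on the log2 scale by the authors' deposited table (q = 0.044) and by -0.11 as a ratio of TPM.

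Of the 10 genes that recycle ascorbate and glutathione, 4 were higher and 1 lower in blades, and 2 were higher in sheaths. Of all listed genes, 51.7% were higher in blades and 45.6% in sheaths. Their deposited log2 fold changes in blades ran from -0.47 to 1.36. The redox gene nearest to SODCC1 in blades, Os02g0813500, and the one nearest to SODCC2 among the 7 in sheaths, Os02g0707100, came from this list and have no checked name. Their deposited log2 fold changes were 0.30 and 0.63. Each likeness rests on 1 salt and 1 control value of a single tissue.

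**Figure D4:**
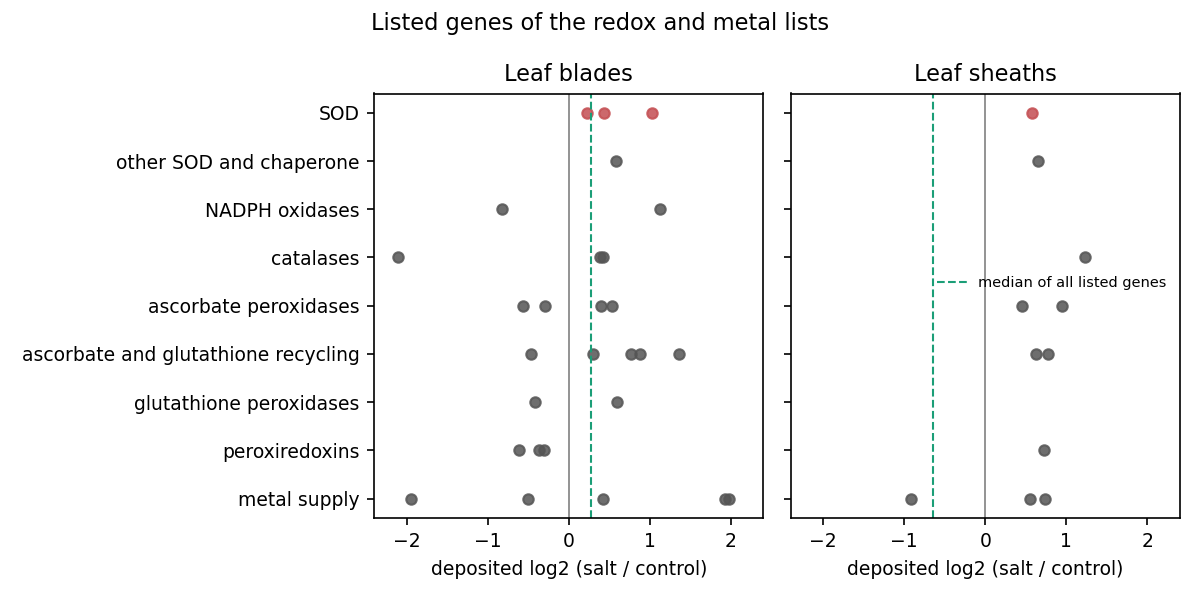
Deposited log2 fold change, salt over control, of each listed gene by gene list, for blades (left) and sheaths (right), with the SOD genes in red. The dashed line is the median of all listed genes of the tissue, 0.27 in blades and -0.65 in sheaths. In blades the lists other than the SODs and CCS hold falls, while in sheaths 9 of 10 genes on the other lists lie above 0.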

How the data were processed

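RNA was sequenced from rice leaf blades and sheaths. Per the submitters' processing notes, HISAT (no version) was used and the build was mm10, a mouse build that cannot fit rice identifiers. Annotation, counting tool and test are not named. Both deposited tables hold selected genes and group values. The blade table holds, per the file headers, log2 fold changes, mean TPM, mean FPKM, mean read counts (estimated counts averaged by the authors) and q-values. Salt is its only group besides control, so the Case1 columns were read as salt. The sheath table holds, per the file headers, log2 fold changes, levels of unnamed unit (taken as a signal), standard errors, a statistic (a score whose product with the standard error is the tested change), p-values and adjusted p-values. The deposited sheath fold change of SODCC2 equals the ratio of levels with 1 added to each.

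No model could be refitted, so fold changes and p-values are the authors' own. Computed here were counts, ratios, shares and Clopper-Pearson intervals (95%) of the read ratio, shifted by the median offset from the deposited fold change (-0.13 on the log2 scale). On reads simulated with counting error alone, unshifted intervals held the true ratio in 94.6% to 95.0% of 1000 draws at each of 3 settings. That checks the calculation only, as the simulated reads held neither the shift nor any spread between libraries. The 95% sheath interval of SODCC2 was also computed here. It is statistic times standard error, plus or minus a normal quantile times the standard error. All 5 SOD genes were described, and of each other list, among the genes whose name could be checked, those with the largest rises and falls. Genes without a checked name are given by identifier where they were nearest to a SOD or, chosen after their values were seen, where they changed most or were most abundant in a list. The members and lists were chosen with earlier results of these data known. The reference name table is of another assembly and held 0 of the SOD identifiers. It had the name on the identifier's chromosome for 33 of 69 pairs, 4 of the 5 SODs among them, and 29 names passed a check of gene order too. The name of the iron SOD was not checked in this way. The software was Python 3.11.15 with SciPy 1.17.1, pandas 2.3.3, matplotlib 3.10.9 and numpy 2.4.6.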

Additional observations from a re-analysis of the deposited data

How the results depend on the processing

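The direction of each SOD change was the same under every alternative tried. In blades this could not have come out otherwise. The ratios are of the same libraries and lie above the deposited changes by a near common shift. Where only changes of at least 1 on the log2 scale counted, 1 SOD was higher in blades and 0 in sheaths, while 14 higher and 11 lower genes of the other lists came to 4 and 2 in blades, and 9 higher and 1 lower came to 1 and 0 in sheaths. With q up to 0.01 in blades and adjusted p up to 0.001 in sheaths, the SOD counts were still 3 and 1. The blade log2 changes of SODA, SODCC1 and SODCC2 were 0.62, 0.41 and 1.21 as ratios of mean TPM, 0.57, 0.36 and 1.16 as ratios of mean FPKM, and 0.56, 0.35 and 1.15 as ratios of mean reads. All lay outside the counting intervals of the deposited values, by the common shift of scale given above. The summed SOD level had a log2 ratio of 0.60 by TPM, 0.55 by FPKM, 0.52 by reads and 0.41 by control TPM times deposited fold change. Alternatives for the other lists, the sum without SODA, and the sum by deposited fold change were chosen after seeing the data. No paired analysis was possible because the tables hold group values only, and for the same reason no library could be left out.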

Other observations

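Further peroxidases were listed beside the SOD genes. Of 7 peroxiredoxins, small thiol peroxidases, 3 were lower and 0 higher in blades, where 51.7% of all listed genes were higher, with deposited log2 fold changes from -0.61 to -0.30. In sheaths 1 peroxiredoxin was listed, Os06g0196300, and it was higher, where 45.6% of all listed genes were higher. The named one is BAS1, a plastid peroxiredoxin, at 475 TPM with salt and 538 TPM in control. Its change on the log2 scale was -0.37 by the authors' deposited table and -0.18 as a ratio of TPM. Of 5 glutathione peroxidases, 1 was higher and 1 lower in blades and none was selected in sheaths.

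APX8, the chloroplast ascorbate peroxidase, was lower with salt in blades and higher in sheaths, at -0.56 and 0.94 on the log2 scale by the authors' deposited tables. As a ratio of TPM its blade change was -0.37. In sheaths its level was 311 with salt and 161 in control. Os06g0196300, which has no checked name, was likewise at -0.30 in blades and 0.73 in sheaths by the authors' deposited tables. Its blade change was -0.10 as a ratio of TPM, at 504 TPM with salt and 542 TPM in control. These differences between tissues were not tested, and both genes were singled out after their values were seen. SODCC2 was higher in both tissues, as were APX2, Os03g0131200, Os11g0106700, Os12g0106000 and, of the recycling list, Os05g0116100.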
